A study of Sus scrofa with 4 samples.

Results

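DIO1 encodes type 1 iodothyronine deiodinase, the selenium-containing enzyme of liver, kidney and thyroid that removes iodine from thyroid hormones. It was followed here in the liver of 4 Chinese miniature pigs, 2 given clenbuterol and 2 controls, with 1 Affymetrix porcine expression array per pig. Such an array reads a transcript through a probe set, a group of short probes. DIO1 is 1 of the 994 genes whose listed symbol and array description name the same gene, and it is read by 1 of the 15383 probe sets of the deposited table. That probe set, Ssc.26334.1.S1_at, carries the pig gene ID 414380, and the deposited table lists 11 of its probes as matching the pig DIO1 messenger RNA. It was chosen because its level was known to differ between the groups, so that difference is described here and not tested.

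The clenbuterol group held 1 male and 1 female pig, and the control group likewise held 1 male and 1 female pig. Clenbuterol is an agonist of the beta2-adrenergic receptor. From 8 weeks of age, at about 18 kg, the treated pigs received it in the diet for 8 weeks, at 25 mg/kg 2 times a day for the first 4 weeks and at 50 mg/kg for the other 4, while for controls the diet held no clenbuterol. The labels do not say whether the dose is per kg of feed or of body weight. Livers were taken at 4 months of age. The labels also describe full sibs of the same gender in each group, while their gender field gives replicate 1 as male and replicate 2 as female in both, so the sib relation was not used. No treated group of another dose or time was compared, and each group rests on 2 animals.

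The thyroid secretes mostly thyroxine (T4), which has little activity until an outer-ring iodine is removed to give triiodothyronine (T3). Liver DIO1 does this, and it also clears reverse T3 and sulfated hormones by removing inner-ring or outer-ring iodine. In rodents and humans the DIO1 gene is itself raised by T3 through the thyroid hormone receptors, so liver DIO1 messenger RNA is often read as a sign of thyroid state. Thyroid hormone levels and deiodinase activity of these pigs were not analysed here.

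DIO1 was higher in clenbuterol than in control livers on every array. On the log2 scale of the authors' GCRMA values it read 8.43 and 8.44 in the clenbuterol livers, against 6.43 and 6.75 in the control livers. The groups did not overlap, as in 68.1% of all tested probe sets (30.8% with clenbuterol higher and 37.3% with it lower), and the lowest clenbuterol value lay 1.68 above the highest control value, which is 3.20-fold. The group means were 8.43 ± 0.01 in clenbuterol and 6.59 ± 0.22 in control livers (SD, n = 2 each). The difference was 1.85, a 3.60-fold higher level with clenbuterol. The authors' deposited table lists a fold of 3.598 for DIO1 and its flag for selection by SAM and limma is set for it.

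The DIO1 difference stands near the top of the array. Of 11931 probe sets that reached a log2 value of at least 4 on at least 2 arrays, 69 (0.578%) had a larger upward difference than DIO1 and 126 a larger difference in either direction. Among the 800 genes with an agreeing symbol on these probe sets, 10 had a larger upward difference. Since DIO1 was chosen on this contrast, these ranks describe it and test nothing.

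**Figure D1:**
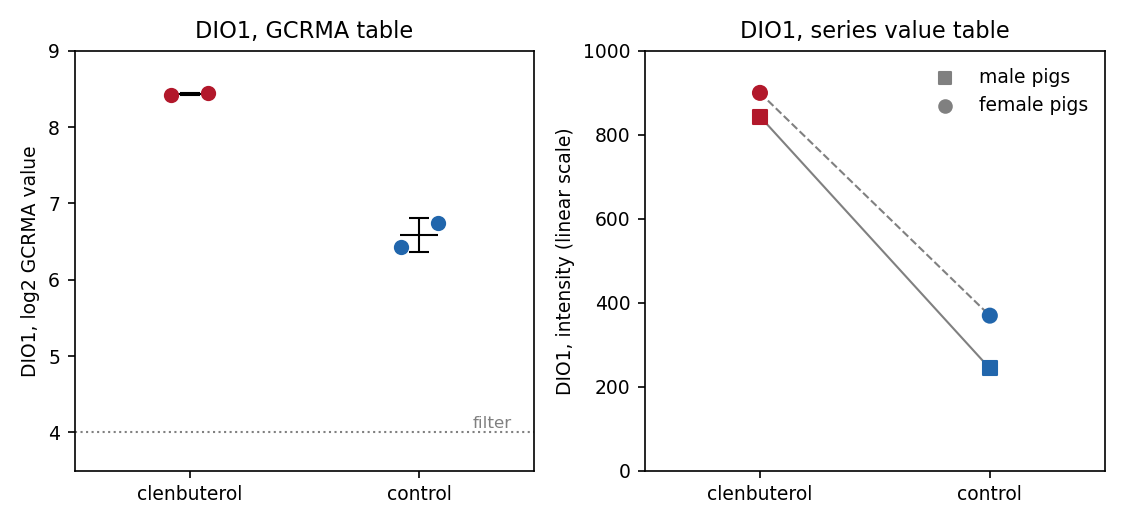
DIO1 on each of the 4 arrays, with clenbuterol left of control. The left panel shows log2 GCRMA values (points), the group mean (short bar) and SD (error bar), with a dotted line at the filter of 4, and the right panel shows linear intensities of the series value table, joined within male (square) and female (circle) pigs. The clenbuterol points lie together at 8.43 and 8.44, and the control points lie apart at 6.43 and 6.75.

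The control pigs differed from each other more than the clenbuterol pigs did. The control values spanned 0.32 on the log2 scale and the clenbuterol values 0.02. Read against all tested probe sets, the DIO1 SD of 0.012 in clenbuterol livers lay below the median SD of 0.0882, and only 8.59% of probe sets had a smaller one. Its SD of 0.224 in control livers lay above the median of 0.0802, with 86.6% of probe sets smaller. An SD of 2 values is itself imprecise, and the difference between the spreads was not tested.

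The series value table, which holds linear intensities with the sex of each pig, gave the same direction in both sexes. DIO1 intensity was 843 in the clenbuterol male, against 243.5 in the control male. It was 900 in the clenbuterol female, against 369 in the control female. The ratio was 3.46-fold in males (1.79 on the log2 scale) and 2.44-fold in females (1.29). The mean of the pairs was 1.54, or 2.91-fold, below the 3.60-fold of the GCRMA values of the same arrays. No error can be given for the difference between the male and female ratios, which rest on single pigs, and it was not tested. From highest to lowest, the arrays ran clenbuterol female, clenbuterol male, control female and control male. The neighbours in that order within each group were not separable with 1 pig each.

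Sex itself gave no called difference in DIO1. In a limma fit of log2 intensity with treatment and sex, DIO1 averaged 8.82 in males and 9.17 in females, a male minus female difference of -0.35 ± 0.17 (SE, 2 pigs per sex). The adjusted p was 0.713 (unadjusted 0.105), and the 95% interval ran from -0.81 to 0.11. The male minus female difference was -0.09 in clenbuterol pigs and -0.60 in control pigs. Over all tested probe sets 1 (0.00838%) was called between the sexes, with 895 at an unadjusted p under 0.05. The called probe set, Ssc.20607.2.A1_at, is described as a transcribed locus weakly similar to a splicing factor, and it read 397 in the clenbuterol male and 364 in the control male, against 18869 in the clenbuterol female and 17863 in the control female. Replicate 1 is male and replicate 2 female in both groups, so sex and anything else that goes with the replicate number cannot be told apart. The array's 18S ribosomal RNA control probe set moved with the replicate number, at 106 in the clenbuterol male and 125 in the control male, against 4039 in the clenbuterol female and 3672 in the control female. Its part in the male minus female difference of DIO1 was not tested.

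High levels of most hepatocyte markers fitted the label liver. Of 13 hepatocyte markers, the 8 on the table all passed the filter, and albumin (ALB), transthyretin (TTR), apolipoprotein C3 (APOC3) and haptoglobin (HP) lay between 15.20 and 15.58, close to the top of the table at 15.61. APOB, the structural protein of liver lipoproteins, was the exception, at 3.46 and 5.73 in clenbuterol livers and 4.42 and 5.19 in control livers, near the filter of 4. The groups did not overlap in 4 of the 8, against 68.1% of all tested probe sets. None of the 8 was called between the groups by limma at an adjusted p of 0.05, against 26.9% of all named genes. None of the 8 markers had an unadjusted p under 0.05. Their median difference was -0.02. The summed unlogged level of the list was 256905 to 260065 in clenbuterol and 260452 to 264745 in control livers. Near the top of the scale the array may compress differences. In whole liver, fewer cells of a type and less RNA per cell cannot be told apart.

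Markers of other cells moved with the groups. Over the whole array 2843 of 11931 probe sets (23.8%) were called by limma with Benjamini-Hochberg adjustment, 11.4% higher and 12.4% lower, and of the 800 named genes 26.9% were called, 20.8% higher and 6.12% lower. Of 6 stellate cell and fibroblast markers 4 rose and 1 fell, and their summed level was 7931 to 8222 in clenbuterol livers, against 5746 to 5761 in control livers. The brightest of them, COL3A1, weighs most in that sum, so the sum is no measure of the whole marker set. COL3A1 rose by 0.44 on its brightest probe set (adjusted p = 0.0280), a call lost in the series values (0.0756). Its other probe sets differed by 0.22 and -0.14, and neither was called. COL1A1, a chain of type I collagen, rose by 1.42 (adjusted p = 0.00580), and kept that call under all 10 alternatives. The pericyte gene RGS5 fell by 1.37 (adjusted p = 0.0176), a call lost without the first or the second clenbuterol array (0.0808 and 0.0639, within 0.00794 to 0.0808 over 10 alternatives). With 1 array left out, the 5 stellate calls numbered 1 without either clenbuterol array, 3 without the first control array and 4 without the second. Of 5 Kupffer cell markers 2 rose, with a sum of 16922 to 18057 in clenbuterol livers and 14734 to 14738 in control livers, and with 1 array left out 0 or 1 of these calls held. AIF1 lost its call with any 1 array left out, and CD14 without the first or second clenbuterol array or the first control array. Of 5 endothelial markers 2 rose and 1 fell, with a sum of 1654 to 1675 in clenbuterol livers and 1549 to 1574 in control livers, and 0 to 2 of these calls held with 1 array left out. That of PECAM1 was lost with any 1 array left out, that of CLDN5 without the first or second clenbuterol array or the first control array, and that of VWF without the first clenbuterol array. Of 3 bile duct markers 2 fell, CLDN4 and GGT1, a direction that turned to 0.09 and 0.12 when intensities were scaled to the spikes, with a sum of 249 to 254 in clenbuterol livers and 333 to 336 in control livers. Neither call held with any 1 array left out. Of 3 T and NK cell markers 1 rose, with a sum of 396 to 405 in clenbuterol livers and 233 to 289 in control livers. That call, of CD2, was lost without the second clenbuterol array (adjusted p = 0.0545) and with the replicate block (0.0616), within 0.00443 to 0.0616 over 10 alternatives. The 1 neutrophil gene measured, NPG4, read 31.4 to 47.1 unlogged in clenbuterol livers and 6.47 to 7.15 in control livers. It passed the filter through the clenbuterol arrays alone, so its difference of 2.50, which ran from 2.21 to 4.61 over 9 alternatives, is given without a test. None of the 6 B and plasma cell, 7 thyroid gland or 8 kidney markers was among the named genes, and the 1 erythroid marker was below the filter. The part of these cells in the DIO1 difference was not tested.

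RNA and labelling measures moved with the groups as well. The 3' minus 5' gap of the array's control transcripts, a measure of how far labelling reached along the RNA, was lower in clenbuterol livers without overlap in 7 of 10 probe set pairs, and the other 3 overlapped. For the gapdh-3_at pair it was 1.03 and 1.28 in clenbuterol, against 1.68 and 1.81 in control livers. Hybridisation spikes averaged 11.17 and 11.34 (log2 intensity) on the clenbuterol arrays, against 11.55 and 11.73 on the control arrays. Scaling to them moved the median difference of all tested probe sets to 0.36, and the DIO1 difference to 1.92. DIO1 then stood 1.92 against that median of 0.36, where the unscaled series values gave 1.54 against a median of -0.03. The trimmed mean of the series values was 500.1 on all 4 arrays. The part of RNA quality in the DIO1 difference was not tested.

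Among other enzymes that handle thyroid hormone, sulfotransferase genes were higher with clenbuterol. Of 12 genes of deiodination, sulfation and glucuronidation other than DIO1, 3 were measured, 2 rose and none fell, with a median difference of 0.44 against -0.03 over all tested probe sets. Of all named genes 20.8% rose. SULT1E1, a sulfotransferase that conjugates oestrogens and iodothyronines, read 12.88 and 12.87 in clenbuterol livers, against 12.40 and 12.27 in control livers. It rose by 0.54 ± 0.09 (SE), or 1.45-fold, with an adjusted p of 0.0218. The authors' flag for selection by SAM and limma is not set for SULT1E1. SULT1A3, of the phenol sulfotransferase family, read 10.96 and 10.86 in clenbuterol livers, against 10.46 and 10.49 in control livers, a rise of 0.44 ± 0.08 with an adjusted p of 0.0306. Neither call held with any 1 of the 4 arrays left out, nor in the unscaled series values. Over its 10 alternatives the adjusted p of SULT1E1 ranged from 0.00881 to 0.0860, and that of SULT1A3 from 0.0160 to 0.120. Sulfated T4 and T3 are preferred substrates of DIO1 in humans and rats.

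IYD, iodotyrosine deiodinase, salvages iodide from iodotyrosines and is no member of the selenium-containing deiodinases. It read 9.12 and 9.19 in clenbuterol livers, against 9.45 and 9.48 in control livers. The authors' flag for selection by SAM and limma is not set for IYD. The groups did not overlap, and the difference of -0.32 had an adjusted p of 0.0560. In the series values it was -0.77 with an adjusted p of 0.0237, or 0.0416 with the replicate number as a block, and over its 10 alternatives the adjusted p ranged from 0.0237 to 0.191. The genes of the type 2 and type 3 deiodinases, DIO2 and DIO3, were not among the named genes.

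SLCO1A2, an organic anion transporter that in humans carries bile salts, T4 and T3, was the 1 carrier or transporter of 4 measured, out of 15 listed, that rose, and none fell. The list's median difference was 0.13, and 1 of 4 is near the 20.8% of all named genes that rose. Both of its probe sets separated the groups. Ssc.16331.1.A1_at read 7.75 and 7.84 in clenbuterol livers, against 6.77 and 6.78 in control livers, and rose by 1.02 ± 0.08 with an adjusted p of 0.00593. Ssc.16331.1.S1_at read 7.79 and 7.71 in clenbuterol livers, against 6.14 and 6.01 in control livers, and rose by 1.68 ± 0.09 with an adjusted p of 0.00399. The probe sets thus gave 2.03-fold and 3.21-fold for 1 gene. SLCO1A2 kept its call under all 10 alternatives with both probe sets. The flag for selection by SAM and limma in the authors' deposited table is set for both.

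The serum carriers of T4 did not pass the test. Thyroxine-binding globulin (SERPINA7) read 9.49 and 9.37 in clenbuterol livers, against 9.21 and 9.10 in control livers, a difference of 0.27 with an adjusted p of 0.107. Transthyretin and albumin both differed by -0.02, at levels near the top of the scale.

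Among 24 receptors and coregulators 4 were measured and 1 rose, near the 20.8% of named genes, with a median difference of -0.02. THRB, the main thyroid hormone receptor of liver in rodents and humans, read 4.97 and 4.89 in clenbuterol livers, against 4.50 and 4.81 in control livers. The difference of 0.27 had an adjusted p of 0.204. THRA was read by a probe set for the alpha 2 form, which does not bind T3, at 7.52 and 7.29 in clenbuterol livers, against 7.73 and 7.69 in control livers. Its difference of -0.31 had an adjusted p of 0.120. A probe set for the alpha 1 form was below the filter, at 2.68 and 2.69 in clenbuterol livers and 2.71 and 2.69 in control livers.

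PPARGC1A, a coactivator that cAMP raises in liver and that works with the T3 receptor among other receptors, rose by 0.82 ± 0.10 with an adjusted p of 0.0119. It read 9.85 and 9.80 in clenbuterol livers, against 9.10 and 8.93 in control livers. The call was lost when the first or the second clenbuterol array was left out (adjusted p 0.0622 and 0.0567), within a range of 0.00239 to 0.0622 over 10 alternatives. NCOA1, a coactivator of nuclear receptors, differed by -0.34 on its brightest probe set (adjusted p = 0.0502), and by -0.49 on the other (adjusted p = 0.0380). The first turned to 0.18 with spike scaling.

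**Figure D2:**
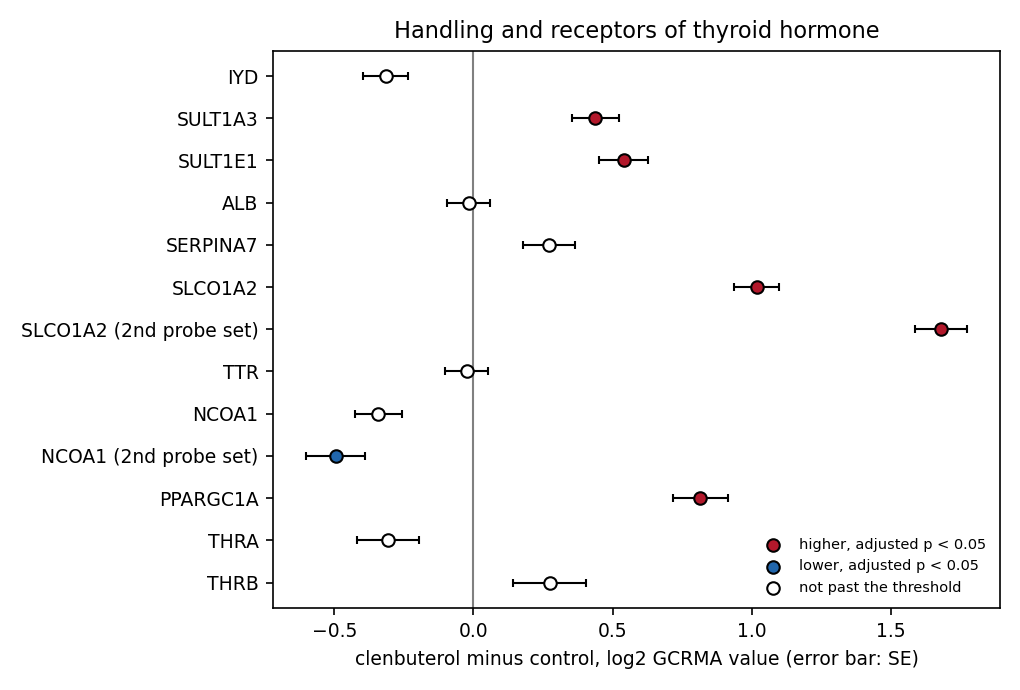
Clenbuterol minus control difference in log2 GCRMA value (x axis) for each tested probe set of the lists of thyroid hormone enzymes, carriers and receptors, DIO1 itself left out, with the SE of the limma fit as the error bar. Filled points passed an adjusted p of 0.05, in red where higher with clenbuterol and in blue where lower. SLCO1A2 lies farthest to the right with both probe sets, at 1.02 and 1.68.

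Beyond these lists, 14 probe sets name thyroid hormone or thyroxine in their array description, after 1 that matched only through parathyroid was set aside. 7 of them passed the filter and none was called, against 23.8% of all tested probe sets. Their lowest unadjusted p was 0.0365, and their adjusted p ran from 0.102 to 0.805. The differences lay between -0.31 and 0.27 with a median of 0.05. In 5 of the 7 the groups did not overlap, close to the 68.1% of all tested probe sets. Besides THRB, THRA and SERPINA7, they hold a locus similar to the proline hydroxylase beta subunit P4HB, a protein disulfide isomerase whose older names include a thyroid hormone binding protein. It read 13.04 and 12.99 in clenbuterol livers, against 13.24 and 13.27 in control livers, a difference of -0.24. The other 3 are similar to the human receptor interactors 12 and 4 and to receptor associated protein 6, named for their contact with the receptor or its cofactors. They differed by 0.19, 0.05 and -0.23. The locus similar to interactor 4 is listed under the symbol GPX1, which its description does not name.

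Genes known to be raised by T3 in liver, mostly from rodents, moved in both directions. Of 26 listed, 12 were on the table, 10 passed the filter, 4 rose and 2 fell, against 20.8% and 6.12% of all named genes, with a median difference of 0.32. With 1 array left out 4 or 5 of these 6 calls were made. CYP7A1, which catalyses the first and limiting step from cholesterol to bile acids, read 12.84 and 12.86 in clenbuterol livers, against 10.61 and 10.69 in control livers, and rose 4.59-fold (2.20 ± 0.08, adjusted p = 0.00221). SCD, the desaturase that makes monounsaturated fatty acids, read 12.27 and 12.15 in clenbuterol livers, against 10.59 and 10.52 in control livers, and rose by 1.66 (adjusted p = 0.00385). FASN, fatty acid synthase, rose by 1.51 on its brighter probe set and by 1.35 on the other (adjusted p = 0.00615 and 0.00707). CYP7A1, SCD and FASN kept their calls under all 10 alternatives. CPT1A, which admits fatty acids to mitochondria, rose by 0.42 (adjusted p = 0.0339), a call lost with any 1 array left out (0.0946 to 0.134) and in the unscaled series values (0.166), with a range of 0.0209 to 0.179 over 10 alternatives.

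ME1, the cytosolic malic enzyme that supplies NADPH for fat synthesis and is a classic T3-raised gene of rat liver, fell. It read 4.09 and 4.09 in clenbuterol livers, close to the filter, against 5.11 and 5.16 in control livers. The fall was 1.05 on the log2 scale (adjusted p = 0.00573). ME1 was also called lower by limma in the series values without a block (adjusted p = 0.0142), with the replicate block (0.0323) and with spike scaling (0.0295). The sterol regulator gene SREBF2 fell by 0.36 (adjusted p = 0.0390), but differed by 0.01 in the other direction with spike scaling, and its call was lost with any 1 array left out (0.109 to 0.148, and 0.0257 to 0.981 over 10 alternatives).

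The remaining 4 genes of this list did not pass the test. UCP2, a mitochondrial carrier, read 5.76 and 4.47 in clenbuterol livers, against 3.98 and 3.89 in control livers. It passed the filter through the clenbuterol arrays alone, and its difference of 1.18 rested largely on the first clenbuterol array. That difference was not called in the main fit. It was 1.82 when the second clenbuterol array was left out, within 0.54 to 1.82 over 9 alternatives. Some alternatives did call it, among them the series values without a block and with spike scaling, but no test of it is read here. The lipase inhibitor gene ANGPTL4 differed by -0.34, APOA1 by 0.02 and ATP2A2, the calcium pump, by 0.22 on its brightest probe set, against -0.35 and -0.17 on the other two. SREBF1 and ACACA were below the filter. THRSP, another gene widely used as a T3 marker, was not among the named genes.

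DIO1 carries selenocysteine at its active site, and selenoproteins compete for selenium supply in rodents. Of 37 genes of selenoproteins and selenium handling, 7 were on the table, 6 passed the filter, 1 rose and 2 fell, against 20.8% and 6.12% of all named genes, with a median difference of 0.01. GPX3, the plasma glutathione peroxidase, read 11.11 and 11.17 in clenbuterol livers, against 11.93 and 12.25 in control livers, and fell by 0.95 (adjusted p = 0.0156). TXNRD1, cytosolic thioredoxin reductase, read 7.90 and 7.93 in clenbuterol livers, against 8.57 and 8.72 in control livers, and fell by 0.73 (adjusted p = 0.0133), with -0.52 on its other probe set. SELENOW, a small redox protein, read 9.58 and 9.47 in clenbuterol livers, against 8.99 and 8.98 in control livers, and rose by 0.54 (adjusted p = 0.0202).

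These 3 calls depended on single arrays and on the scaling. GPX3 lost its call without the first or the second clenbuterol array (adjusted p 0.0761 and 0.0691), and TXNRD1 without either of them (0.0659 and 0.0600) or without the second control array (0.0514). SELENOW lost its call with any 1 array left out (0.0601 to 0.0794) and differed by 0.21 in the unscaled series values (adjusted p = 0.350). With spike scaling GPX3 differed by -0.29 and TXNRD1 by -0.53, and neither was called. Over 10 alternatives the adjusted p ranged from 0.00714 to 0.301 for GPX3, from 0.00623 to 0.0659 for TXNRD1 and from 0.0108 to 0.350 for SELENOW. The other 3 members did not pass the test. SELENOP, which carries selenium out of the liver, differed by -0.09 at 14.34 and 14.40 in clenbuterol livers, against 14.47 and 14.45 in control livers. GPX1 differed by 0.10. GPX4 differed by 0.12 on its brightest probe set and by 0.37 on its dimmer one (adjusted p = 0.0718). In the series values the dimmer probe set differed by 0.60, with an adjusted p of 0.041, or 0.061 with the replicate block. With spike scaling it was called higher (0.99, adjusted p = 0.0027).

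**Figure D3:**
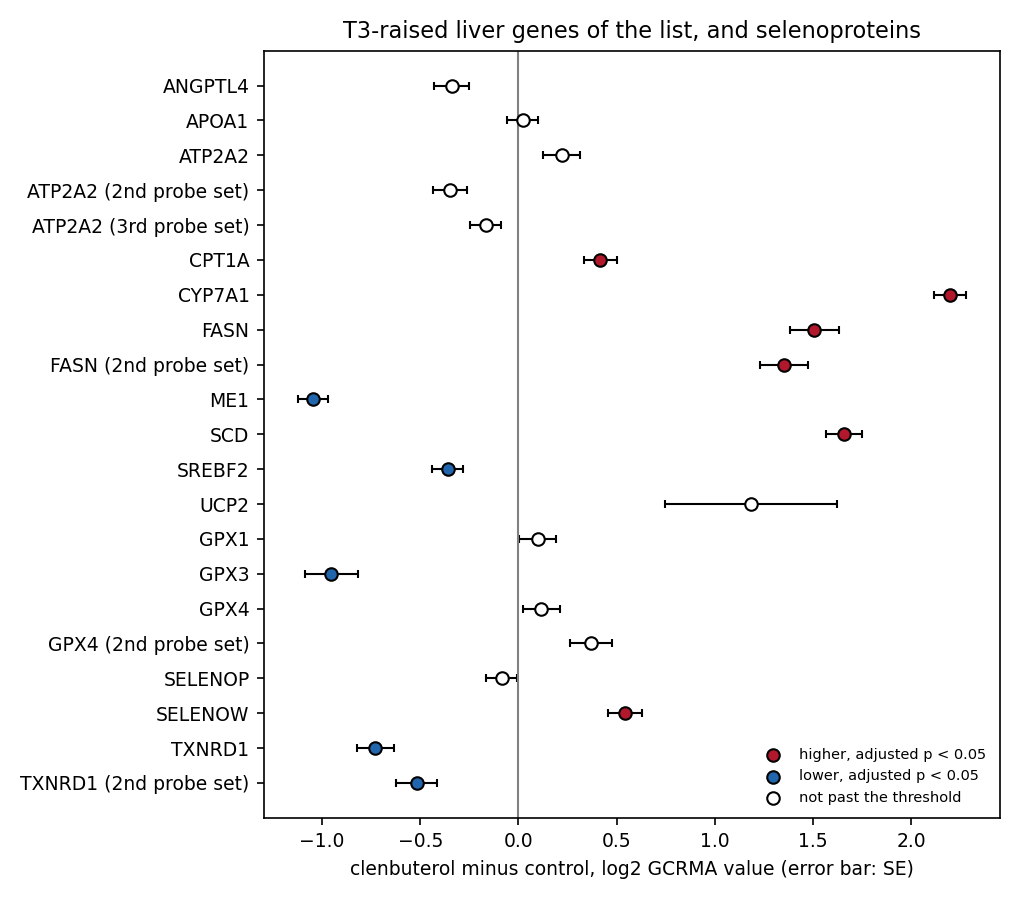
Clenbuterol minus control difference in log2 GCRMA value (x axis) for each tested probe set of the liver genes known to be raised by T3 (ANGPTL4 to UCP2) and of the selenoproteins (GPX1 to TXNRD1), with the SE of the limma fit as the error bar. Filled points passed an adjusted p of 0.05, in red where higher with clenbuterol and in blue where lower. CYP7A1 at 2.20 and ME1 at -1.05 are the extremes, and the selenoproteins lie between -0.95 and 0.54.

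Of 9 factors known to act at the DIO1 gene in other mammals, 3 were measured. The liver factor GATA4 read 6.02 and 5.38 in clenbuterol livers, against 6.84 and 6.75 in control livers, and fell by 1.09 (adjusted p = 0.0356). The call was lost without the second clenbuterol array (adjusted p = 0.0531), the first control array (0.104) or the second control array (0.0876), and in the series values, where the difference was -0.61 (adjusted p = 0.124). With spike scaling it was -0.23, and over 10 alternatives the adjusted p ranged from 0.0189 to 0.470. CEBPA differed by -0.30 with overlapping groups, and THRB is given above.

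Clenbuterol acts through the beta2-adrenergic receptor and cAMP, and 7 of 22 genes of that pathway were on the table. 5 passed the filter, 3 rose and none fell, against 20.8% and 6.12% of all named genes, with a median difference of 0.46. With either clenbuterol array left out 1 call was made, and with either control array left out 2 were. RGS2, a brake on G protein signalling that cAMP raises, read 9.19 and 9.06 in clenbuterol livers, against 8.00 and 7.97 in control livers. It rose by 1.14 (adjusted p = 0.00580) and kept its call under all 10 alternatives. PRKACB, which encodes one of the catalytic chains of the cAMP-dependent kinase, rose by 0.46 (adjusted p = 0.0371), a call lost with any 1 array left out (0.0689 to 0.127, and 0.00923 to 0.130 over 10 alternatives). The third was PPARGC1A. The subunit genes PRKAR1A and PRKACA differed by -0.20 and -0.05.

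The named genes nearest to DIO1 in pattern were picked by distance. For each of 799 other named genes, the mean of its 4 log2 GCRMA values was subtracted, and the Euclidean distance to DIO1 over the 4 arrays was taken. The median distance was 1.76. The 6 nearest were CCL2 at 0.12, HAMP at 0.16, the IgG heavy chain LOC396781 at 0.17, FADS2 at 0.28, SCD at 0.35 and PTBP3 at 0.36. All share the size and direction of the DIO1 difference by construction, so they get no test here.

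CCL2, a chemokine that draws monocytes, read 7.28 and 7.25 in clenbuterol livers, against 5.29 and 5.45 in control livers. HAMP, the liver hormone hepcidin that limits iron release, read 13.01 and 13.18 in clenbuterol livers, against 11.20 and 11.53 in control livers. LOC396781, an antibody chain made by plasma cells, read 10.18 and 10.13 in clenbuterol livers, against 8.33 and 8.59 in control livers. FADS2, a desaturase of polyunsaturated fatty acid synthesis, read 5.35 and 4.99 in clenbuterol livers, against 3.10 and 3.37 in control livers, both below the filter. PTBP3, an RNA-binding protein, read 9.48 and 9.82 in clenbuterol livers, against 7.79 and 8.31 in control livers, and SCD is described above. Like DIO1, all but SCD were lowest on the first control array. The genes were picked by distance over these same 4 arrays, so this too is partly by construction. By the same distance in the series values, 3 of the 6 were again among the nearest 6, and the 6 ranked between 2 and 12. Over 4 arrays this likeness rests mainly on the difference between the groups.

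**Figure D4:**
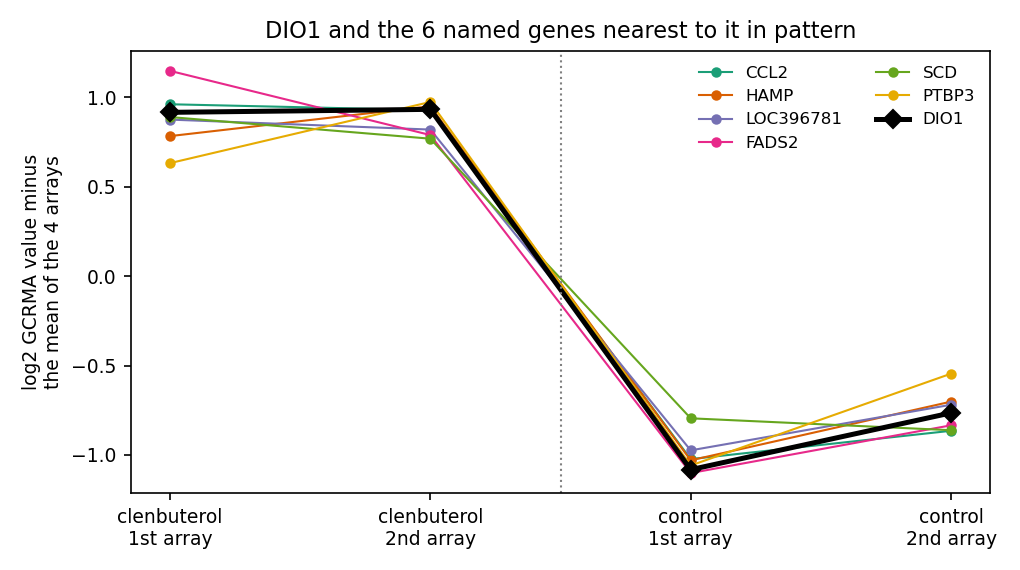
Log2 GCRMA value minus the gene's mean over the 4 arrays (y axis) for DIO1 (thick black line, diamonds) and the 6 named genes nearest to it, with the clenbuterol arrays left of the control arrays and a dotted line between the groups. All 7 lines lie above 0 on the clenbuterol arrays and below 0 on the control arrays, and the first control array is the lowest for DIO1.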

How the data were processed

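Liver RNA of 4 pigs was measured on 1 array each. The authors' deposited table holds log2 GCRMA values of 15383 probe sets, per the file headers, with the group of each array but not its sex. It also holds the authors' signed fold score, limma p-values and SAM q-values, and a flag for probe sets selected by both, per the file headers, and neither kind of p-value was used here. GCRMA is named in the submitters' processing notes, without version or settings. The deposited series value table holds linear intensity values of 24123 probe sets with replicate and sex, per the labels, and its normalization is not stated. Its columns have equal trimmed means.

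Probe sets of at least 4 (log2) on 2 arrays were tested with limma 3.58.1 in R 4.3.3 and Benjamini-Hochberg adjustment over all 11931, at 0.05. The fits were tested on simulated data. A symbol was used where the array description held the symbol, a synonym, the gene ID or at least 75% of the words of the listed title. That held for 1192 of 2196 probe sets with a listed symbol. Of these 2196 probe sets, 2051 matched the pig gene table by gene ID. Of several probe sets of a gene the brightest counts. The gene and the lists were chosen with earlier results of these data known, and 2 listed genes are not reported here. Named were all members of a list past the threshold and up to 4 others by p, the probe sets describing thyroid hormone, and the 6 nearest genes. The number of arrays limits precision. In the group fit, p-values rest on the spread between the male and the female pig of each group, with limma sharing spread over probe sets. That spread also holds whatever goes with the replicate number. No genome build is named, so no position is given. Alternatives were other filters, scalings and tables, a replicate block and each array left out.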

Additional observations from a re-analysis of the deposited data

Results flagged for a closer look

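In 12 of the 72 named probe sets tested, the male pair and the female pair moved in opposite directions in the series values. The difference between the pairs was not tested, as each sex has 1 pig per group. DIO1 was not among them. For several of the 12, among them THRB, SREBF2 and TIMP1, the groups did not overlap in the GCRMA values of the same arrays. Every pairing of those values moves in 1 direction, so the opposite directions of these genes stand in the series values alone. Male minus female values are given below, on the log2 scale.

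Among receptor genes, THRB differed by 0.62, at 0.35 between males and -0.27 between females. The loci similar to receptor associated protein 6, interactor 12 and interactor 4 differed by -0.25, 0.22 and -0.037. For SREBF2 the value was 0.77, at 0.01 between males and -0.76 between females. SREBF2 was called lower in the GCRMA values, but not in the series values (limma adjusted p = 0.294). For ALB it was 0.087, for ATP2A2 0.067 and for GPX4 0.19.

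Among markers of other cells, TIMP1, an inhibitor of matrix proteases, had the widest gap of the 12 at -1.19. It stood at -0.23 between males and 0.97 between females. Over both pairs TIMP1 differed by 0.37 in the series values, with a limma adjusted p of 0.466. In the GCRMA values it was called higher, at 5.75 and 5.74 in clenbuterol livers, against 4.91 and 4.57 in control livers. For CD3E the value was -0.58, for CDH5 0.27 and for LYVE1 0.12.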

How the results depend on the processing

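The DIO1 difference kept its direction under every alternative run. It was 1.54 in the series values with or without the replicate block, 1.92 with spike scaling, 1.87 with median centring and 1.69 to 2.01 with 1 array left out. The kept direction is no test of the difference, since DIO1 was chosen on this contrast and every alternative reused the same arrays. With groups that did not overlap, leaving out 1 array could not reverse the direction, and a change of filter leaves the DIO1 values as they are. The alternatives thus show only how far the size of the difference moved. Spike scaling, applied to the pairs after seeing the data, gave 2.18 for males and 1.67 for females.

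Of all tested probe sets 2843 were called. The count was 1326 in the series values without a block (690 higher, 636 lower), 1054 with the replicate block and 579 to 1213 with 1 array left out. Spike scaling gave 3354 calls, 3098 higher and 256 lower, against 1365 and 1478. Across the tested probe sets, male minus female differences in the clenbuterol group and in the control group correlated at 0.177. With 2 pairs of pigs this cannot show pairing. The GCRMA columns carry no replicate number, so the block was fitted to the series values.

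Of 38 called named probe sets, 14 kept their call with each array left out and under every other alternative, and 24 lost it with at least 1 array left out. The probe sets that kept their call include CCL2, HAMP, LOC396781, FADS2 and SCD, which were picked for their likeness to DIO1. NPG4 is also among them, and like FADS2 it passed the filter through the clenbuterol arrays alone. Calls of these genes and of PTBP3, another of the nearest genes, are not read as results, though SCD also stood on the T3 list. Spike scaling reversed CLDN4 (0.093), GGT1 (0.12) and SREBF2 (0.0081), and the cause was not tested. Sex calls numbered 0 without a filter and 3 with a filter of 6. The DIO1 sex difference was -0.60 to -0.09 with 1 pig left out and -0.17 with spike scaling. Low signal limits several genes that lay near the filter, among them ME1, FADS2, NPG4, UCP2, THRB, GGT1 and TIMP1.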

Other observations

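Few selenoproteins carry an agreeing symbol on this array, so the array descriptions were also searched for selenium, selenoprotein and selenophosphate after the values had been seen. These values are given with no test. A locus similar to human selenophosphate synthetase 2, the enzyme that makes the selenium donor for selenocysteine, read 12.09 and 11.89 in clenbuterol livers, against 12.62 and 12.59 in control livers, a difference of -0.62 without overlap. Another probe set with the same description, Ssc.15219.1.S1_at, differed by 0.02 with overlapping groups, so the probe sets do not give 1 answer. A locus similar to selenophosphate synthetase 1 differed by -0.41, 1 similar to selenium binding protein 1 by -0.29 and 1 similar to selenoprotein S by -0.32, each without overlap. Loci similar to the 15 kDa selenoprotein and to selenoprotein T differed by 0.31 and 0.22 without overlap. A locus similar to selenoprotein M read 4.83 and 4.23 in clenbuterol livers, against 3.39 and 4.22 in control livers, a difference of 0.72 near the filter. In all, the groups did not overlap in 9 of the 13 tested probe sets found by this search, close to the 68.1% of all tested probe sets.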
